A study of Mus musculus with 23 samples.

Results

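The 9 genes described here encode BACH1 and BACH2, the NRF factors NRF1 (Nfe2l1), NRF2 (Nfe2l2) and p45 NF-E2 (Nfe2), the NRF2 inhibitor KEAP1, and the small MAF proteins MAFF, MAFG and MAFK. They were chosen by gene symbol from a deposited RNA table of 25124 genes. All 9 were found there with 1 transcript each, and 8 of them passed the filter on low values, which asked for 1 TPM or more in 3 or more libraries. Bach2 did not. The RNA came from mouse embryonic stem cells of the E14Tg2A line, grown on gelatin in medium with serum and leukemia inhibitory factor. The compared groups were Bach1-KO cells, a knockout made with CRISPR/Cas9, and wild-type (WT) cells, with 3 polyA RNA libraries each. No treatment is labelled for either group, and neither the number of knockout clones nor the edited position was stated in the labels, so the knockout and any other difference between the cell populations cannot be told apart. The series also holds chromatin samples, which were not used here because their positions are on the mm9 build and no gene positions on that build were at hand.

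BACH and NRF proteins belong to the CNC family of basic leucine zipper factors. They bind DNA as dimers with a small MAF protein, at antioxidant response elements (AREs) and related MAF recognition elements. BACH1 represses genes there until heme binds it and leads to its degradation, whereas NRF2 activates many of the same genes. KEAP1 bridges NRF2 to a CUL3 ubiquitin ligase, and oxidants or electrophiles release NRF2 from it. Small MAF proteins have no activation domain of their own, so a dimer's effect depends on the CNC partner, and small MAF dimers without a CNC partner repress.

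The start regions of the genes were searched for ARE core letters, since several of these factors are known to be controlled through such elements. RefSeq windows on GRCm38.p6, from 250 bases before to 50 bases after a transcript start, were at hand for 8 of the 9 genes, 14 windows in all. Nfe2 had no window and was not searched. Both strands were searched for TGACNNNGC, the ARE core, and for TGAGTCA and GCTGAGTCA, where the last contains the one before it. The ARE core matched 1 window each of Nfe2l2, Maff, Mafg and Mafk, and neither of the other motifs matched a window of these genes. Of 32851 windows of all genes, 12.4% held the ARE core, 5.20% held TGAGTCA and 0.454% held GCTGAGTCA. Counted by gene, 14.0% of all genes with a window held the ARE core. Maff had 3 windows in which to match. G and C made up 68.7% of the matched window of Nfe2l2, 69.7% of that of Mafg and 68.3% of that of Mafk. For the matched Maff window it was 50.3%, and the median of all windows was 52.7%. The matches are shown because all 3 small MAF genes and Nfe2l2 hold one. Each is written on the gene's strand with up to 25 bases on either side and the match in capitals, with Mafg and Mafk holding it on the opposite strand. The matches begin at position -240 of Nfe2l2, -112 of Maff, -222 of Mafg and -13 of Mafk relative to the start.
Nfe2l2, chr2:75704870-75704913, minus strand: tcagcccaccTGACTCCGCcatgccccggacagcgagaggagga
Maff, chr15:79346484-79346542, plus strand: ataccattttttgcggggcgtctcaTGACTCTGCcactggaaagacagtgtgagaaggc
Mafg, chr11:120633736-120633794, minus strand: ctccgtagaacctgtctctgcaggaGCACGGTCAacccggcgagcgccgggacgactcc
Mafk, chr5:139791498-139791556, plus strand: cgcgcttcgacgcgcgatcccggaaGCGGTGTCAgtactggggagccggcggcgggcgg
A match is a run of letters and shows no binding.

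RNA levels are TPM, transcript abundances scaled to transcript length and to a fixed library total. They keep no read depth, so counting error is unknown. The listed TPM summed to 605553 to 606200 in knockout and to 604964 to 605353 in WT libraries. Libraries of the same genotype had a Pearson correlation of at least 0.997 over the genes. Each fold change below is the knockout mean of log2(TPM + 1) minus the WT mean, a scale on which changes of low genes come out too small. Adjusted p-values come from limma with Benjamini-Hochberg adjustment over 12196 tested genes and reflect only the spread among libraries, called biological triplicates in the design text. The change was wide: 83.0% of the tested genes passed the adjusted threshold of 0.05, 28.3% higher and 54.8% lower in knockout cells, and the median log2 fold change was -0.20. Under quantile normalization the median was -0.03, with 37.8% of the tested genes called higher and 41.7% lower. Under median-of-ratios scaling the median was -0.02, with 38.8% called higher and 41.2% lower. The share of calls that were higher was 47.6% and 48.5% under these, against 34.0% as deposited. For the tested factors, changes are also given relative to the median of all tested genes. The stem cell markers Pou5f1, Sox2, Nanog, Zfp42, Dppa5a and Tdgf1 were present in all libraries, with summed levels of 5958 to 6128 TPM in knockout and 4998 to 5160 TPM in WT cells. Dppa5a and Pou5f1 carried most of that sum, and with Zfp42 they were higher in knockout cells, whereas Nanog (116 ± 4.73 TPM in knockout and 306 ± 2.52 TPM in WT cells, SD, n = 3 each), Sox2 and Tdgf1 were lower.

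All 8 tested factors passed, 6 lower and 2 higher in knockout cells, beside the 83.0% of all tested genes that passed. Nfe2, Keap1 and Nfe2l2 had the largest falls among them, Maff, Bach1 and Nfe2l1 fell less, and Mafk and Mafg rose. The median log2 fold change of the 8 was -0.36, against -0.20 for all tested genes. In each of the 9 genes, Bach2 included, the 3 knockout values and the 3 WT values did not overlap, which was also so for 84.3% of the tested genes, so neither count sets these factors apart from other genes.

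**Figure D1:**
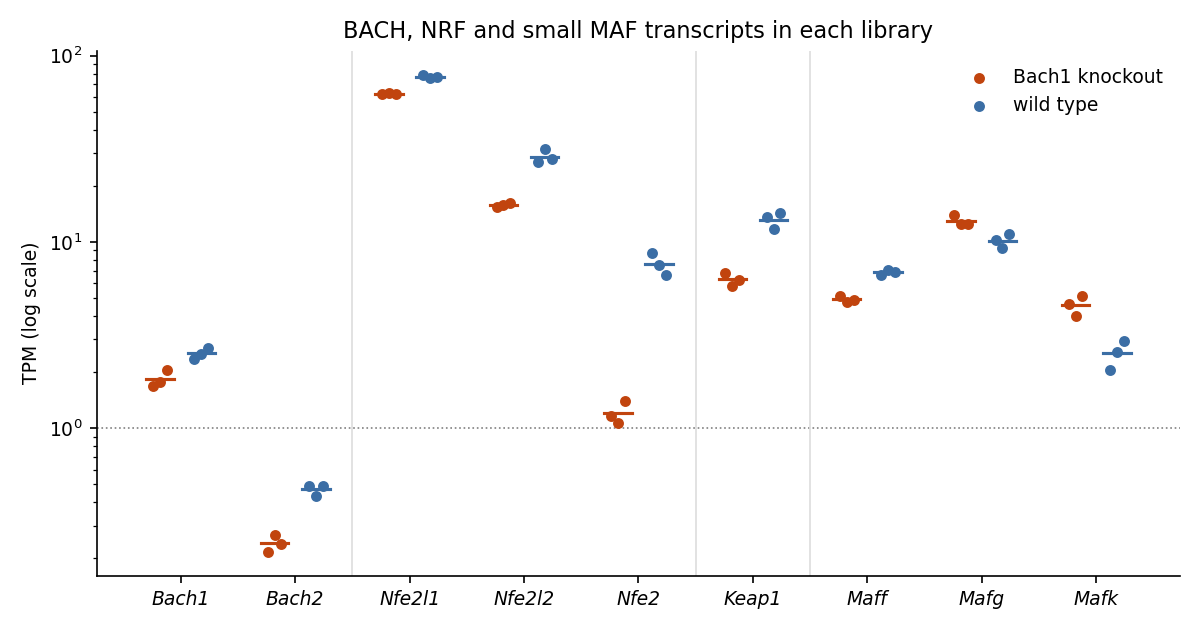
TPM of each gene (log axis) in each library, with knockout points left of WT points and a bar at the mean of 3; the dotted line marks 1 TPM. Nfe2l1 stands highest and Bach2 lowest in both groups, Nfe2 shows the widest gap, and Mafg and Mafk are higher in knockout cells.

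The order of the levels differed between the genotypes. In knockout cells it ran from Nfe2l1 through Nfe2l2, Mafg, Keap1, Maff, Mafk, Bach1 and Nfe2 to Bach2, and among neighbours only the values of Maff and Mafk overlapped. In WT cells it ran from Nfe2l1 through Nfe2l2, Keap1, Mafg, Nfe2, Maff, Mafk and Bach1 to Bach2, where Nfe2 overlapped Maff and Mafk overlapped Bach1. Nfe2 stood 8th in knockout and 5th in WT cells, and Mafg stood 3rd in knockout and 4th in WT cells. The mean of Nfe2l1 was at or above that of 94.9% of the 25124 listed genes in knockout and of 95.4% in WT cells, while Bach1 was at or above 60.0% in knockout and 61.9% in WT cells.

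Bach1, the targeted repressor, had 1.69, 1.76 and 2.05 TPM in the knockout libraries and 2.35, 2.50 and 2.70 TPM in the WT libraries. The knockout libraries thus kept most of the transcript, with a ratio of means, knockout over WT, of 0.728. The fall of 0.31 on the log2 scale (SE 0.0717, adjusted p = 0.00282) was a fall of 0.11 relative to the median gene, and 41.7% of the tested genes fell at least as much. With median-of-ratios scaling the log2 fold change was -0.17 and did not pass (limma, adjusted p = 0.0545), and with quantile normalization it was -0.18 (limma, adjusted p = 0.0460). It passed with either other pseudocount, at -0.44 with 0.1 (limma, adjusted p = 0.00379) and at -0.14 with 5 (limma, adjusted p = 0.00244). An edit can abolish a protein without removing its transcript, so this level neither checks nor contradicts the knockout label.

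Bach2, the lymphoid relative of BACH1 that acts in B and T cells, had 0.217, 0.268 and 0.238 TPM in knockout and 0.489, 0.431 and 0.491 TPM in WT libraries. These levels were below 1 TPM in all 6 libraries and the gene was not tested for that reason. The ratio of means was 0.512. Without the filter its log2 fold change was -0.24 (adjusted p = 7.73e-04), and the authors' deposited table lists it among the lower transcripts with a log2 fold change of -1.04 (p = 8.47e-04). Of 6 lymphoid markers, 3 were below 1 TPM in all libraries, and their summed levels were 8.13 to 9.29 TPM in knockout and 9.85 to 10.2 TPM in WT cells, mostly from Cd79b. The list went both ways: Cd79a averaged 2.75 TPM in knockout and 1.02 TPM in WT cells, while Cd3e averaged 0.564 TPM in knockout and 1.79 TPM in WT cells. Ptprc averaged 0.00667 TPM in knockout cells and was at 0 TPM in WT cells. Their part in the Bach2 values was not tested, and in bulk RNA fewer cells of a type and less RNA per cell cannot be told apart. On GRCm38.p6 the gene Bach2os overlaps Bach2, and no source states whether counting used the strand, so their reads may be mixed.

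Nfe2l2, which encodes NRF2, the main activator of antioxidant genes, had 15.3, 15.9 and 16.2 TPM in knockout and 26.9, 31.5 and 27.7 TPM in WT libraries. The highest knockout value lay well under the lowest WT value, and the ratio of means was 0.550. On the log2 scale it fell by 0.82 (SE 0.0571, adjusted p = 1.03e-06), which is -0.62 relative to the median gene, and 14.8% of the tested genes fell at least as much. It was -0.61 with quantile normalization and -0.62 with median-of-ratios scaling, and passed under both.

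Nfe2l1 encodes NRF1, which resides in the endoplasmic reticulum membrane and, once released, activates proteasome subunit genes. It was the most abundant of the 9 transcripts, with 62.3, 63.0 and 62.5 TPM in knockout and 79.1, 75.5 and 77.0 TPM in WT libraries. The knockout values lay close together and below all WT values, and the log2 difference was -0.30 (SE 0.0264, adjusted p = 5.29e-06). Of the tested genes 43.0% fell at least as much, and relative to the median gene the fall was 0.10. The change was -0.16 with quantile normalization and -0.09 with median-of-ratios scaling (adjusted p = 0.0141).

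Nfe2 encodes p45 NF-E2, which drives platelet formation by megakaryocytes and was first found as an erythroid globin activator. It had 1.16, 1.06 and 1.40 TPM in knockout libraries, against 8.69, 7.53 and 6.66 TPM in WT libraries. All WT values lay far above all knockout values, and the WT mean was 6.31 times the knockout mean. This was the widest change of the 8 tested genes, at -1.96 on the log2 scale (SE 0.0950, 95% interval -2.18 to -1.75, adjusted p = 9.32e-08), or -1.76 relative to the median gene, and 1.85% of the tested genes fell at least as much. The size depended on the pseudocount, at -2.56 with 0.1 and -1.02 with 5, and the authors' deposited table gives -2.70 (p = 7.92e-05). Of 8 erythroid and megakaryocyte markers 6 were below 1 TPM in all libraries and Hbb-bs was at 0, with summed levels of 6.59 to 7.48 TPM in knockout and 3.81 to 4.38 TPM in WT cells. Epor had the highest mean of these markers in both groups, at 3.39 TPM in knockout and 0.932 TPM in WT cells. Also higher in knockout cells without overlap were Gata1 (0.871 TPM in knockout, 0.306 TPM in WT), Itga2b (0.822 TPM in knockout, 0.311 TPM in WT) and Hba-a1 (0.686 TPM in knockout, 0.219 TPM in WT). Pf4 and Klf1 went the other way without overlap. Pf4 was at 0.114 TPM in knockout and 0.740 TPM in WT cells, and Klf1 at 0.335 TPM in knockout and 0.820 TPM in WT cells. The part of such cells in the Nfe2 values was not tested.

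Keap1 had 6.78, 5.81 and 6.27 TPM in knockout and 13.6, 11.7 and 14.3 TPM in WT libraries. The ratio of means was 0.477, and the fall on the log2 scale was 0.96 (SE 0.0777, adjusted p = 2.91e-06), or a log2 fold change of -0.76 relative to the median gene. Of the tested genes 11.2% fell at least as much, and the authors' deposited table gives -1.12 (p = 5.83e-04). Keap1 and Nfe2l2, the inhibitor and its target, were thus both lower in knockout cells. Within a library Nfe2l2 was 2.26, 2.73 and 2.58 times Keap1 in knockout and 1.98, 2.69 and 1.94 times Keap1 in WT cells. These values overlapped, and the log2 ratio differed by 0.21 (SE 0.172, exact two-sided permutation p = 0.3, adjusted p = 0.36 over 6 ratios). The overlap came from WT replicate 2, without which the difference was 0.36 (SE 0.0820, exact two-sided permutation p = 0.2), and over all 6 libraries left out in turn it ran from 0.12 to 0.36.

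**Figure D2:**
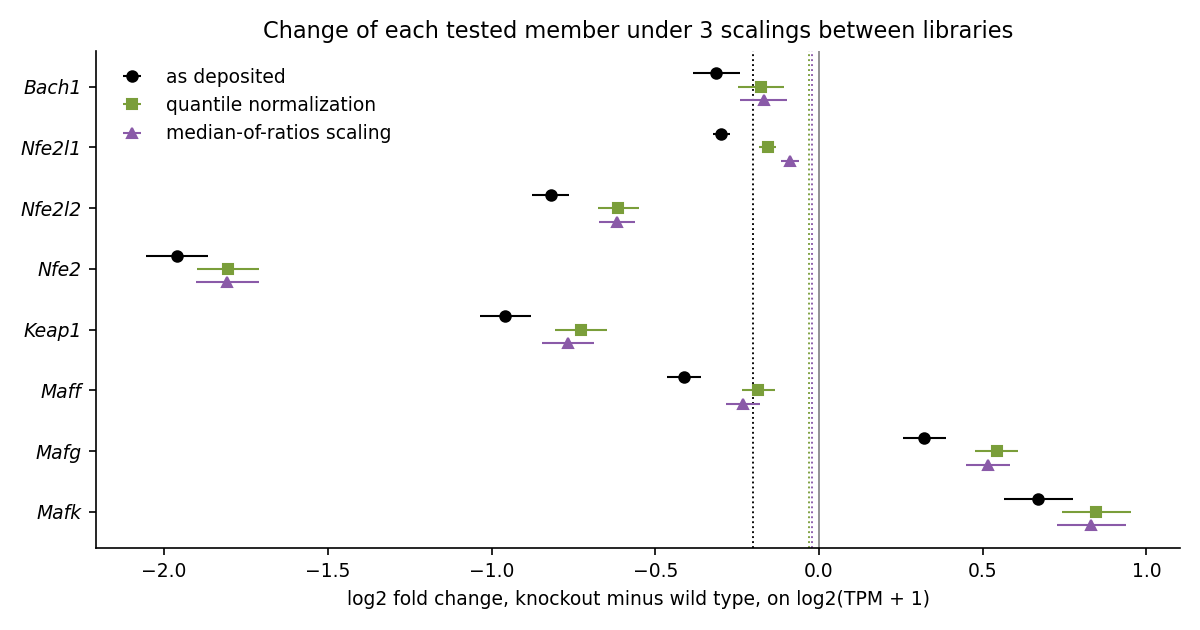
Log2 fold change, knockout minus WT, of the 8 tested genes as deposited and under quantile normalization and median-of-ratios scaling; bars are 1 SE and dotted lines the median of all tested genes under each. Nfe2 lies lowest and Mafg and Mafk lie above 0 under all 3 scalings, while Bach1 and Nfe2l1 lie close to the median gene.

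Of the small MAF genes, Maff fell while Mafg and Mafk rose. Maff had 5.13, 4.76 and 4.85 TPM in knockout and 6.65, 7.06 and 6.90 TPM in WT libraries, a fall of 0.41 on the log2 scale (SE 0.0516, adjusted p = 5.84e-05). Mafg had 13.9, 12.5 and 12.5 TPM in knockout and 10.2, 9.32 and 10.97 TPM in WT libraries, a rise of 0.32 on the log2 scale (SE 0.0655, adjusted p = 0.00141). Mafk had 4.66, 4.01 and 5.10 TPM in knockout and 2.06, 2.57 and 2.95 TPM in WT libraries, a rise of 0.67 on that scale (SE 0.105, adjusted p = 2.75e-04). Under quantile normalization the log2 fold change was -0.19 for Maff, 0.54 for Mafg and 0.85 for Mafk, and under median-of-ratios scaling it was -0.23 for Maff, 0.52 for Mafg and 0.83 for Mafk, so the 3 directions were the same. Relative to the median gene the change was -0.21 for Maff, 0.52 for Mafg and 0.87 for Mafk. Rises at least as large were seen in 20.3% of tested genes for Mafg and 11.3% for Mafk, and falls at least as large in 35.0% for Maff. On GRCm38.p6 the gene Gm17586 overlaps Mafg, so reads there may be shared. The ARE core was held by 1 of the 3 windows of Maff and by the only window of Mafg and of Mafk. Its part in these changes was not tested.

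The makeup of the small MAF pool is described by each gene's share within a library. Maff made up 21.7, 22.4 and 21.6% of the summed small MAF TPM in knockout libraries and 35.2, 37.3 and 33.1% in WT libraries. Mafk made up 19.7, 18.9 and 22.7% in knockout and 10.9, 13.5 and 14.2% in WT libraries. Mafg, the most abundant of the small MAFs in both genotypes, made up 58.7, 58.7 and 55.6% in knockout and 53.9, 49.2 and 52.7% in WT libraries. Such shares do not depend on the scaling between libraries. None of the 3 shares overlapped between genotypes. Each gave an exact two-sided permutation p = 0.1, the smallest that 3 against 3 libraries allow, with an adjusted p = 0.15 over 6 ratios. The TPM of 84.3% of the tested genes did not overlap either, so the lack of overlap alone does not set these shares apart. The 3 shares are parts of the same sum and are not separate results. A lower Maff share has to be matched by a higher share of the rest.

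**Figure D3:**
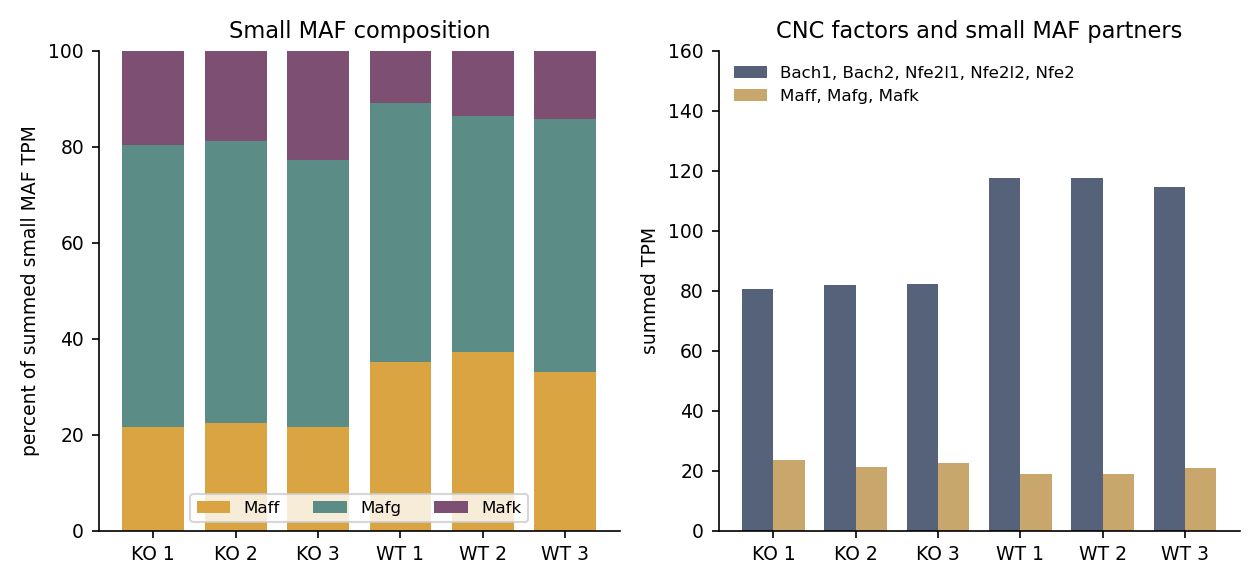
Left, Maff, Mafg and Mafk as percent of their summed TPM in each library; right, summed TPM of the 5 CNC factors and of the 3 small MAFs. The Maff share is lower and the Mafk share higher in the 3 knockout libraries, where the CNC sum is 80.6 to 82.3 TPM against 115 to 118 TPM in WT libraries.

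The summed RNA of the CNC factors was lower in knockout cells, and that of their small MAF partners was higher. Bach1, Bach2, Nfe2l1, Nfe2l2 and Nfe2 together had 80.6, 82.0 and 82.3 TPM in knockout and 118, 117 and 115 TPM in WT libraries. The small MAFs together had 23.7, 21.2 and 22.4 TPM in knockout and 18.9, 19.0 and 20.8 TPM in WT libraries. The small MAF sum was 29.4, 25.9 and 27.3% of the CNC sum in knockout and 16.1, 16.1 and 18.2% in WT cells, a description with no test. Nfe2l1 alone held 76.6 ± 0.697% of the CNC sum in knockout and 66.3 ± 1.70% in WT cells (SD, n = 3 each), and Bach1 held 2.24 ± 0.211% in knockout and 2.16 ± 0.182% in WT cells.

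The balance of BACH and NRF transcripts was read in 2 ways. In knockout cells the Bach1 RNA is that of the targeted gene and may yield no protein. These ratios therefore compare RNA and do not show the balance of repressor and activator proteins. Nfe2l2 was 7.91 to 9.07 times Bach1 in knockout libraries and 10.3 to 12.6 times Bach1 in WT libraries. The log2 ratio of Bach1 over Nfe2l2 was higher by 0.40 in knockout cells (SE 0.106, exact two-sided permutation p = 0.1, adjusted p = 0.15). Bach1 and Bach2 over Nfe2l1, Nfe2l2 and Nfe2 together differed by -0.02 (SE 0.0951, exact two-sided permutation p = 0.7, adjusted p = 0.7), with overlapping values. That sum is mostly Nfe2l1. With 1 TPM added to each gene, the difference was 0.20 (exact two-sided permutation p = 0.1). It was 0.03 without knockout replicate 1 and 0.045 without WT replicate 3, so its sign was not fixed.

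Relatives outside these 9 were scarce. The CNC factor Nfe2l3, NRF3, had 0.398, 0.630 and 0.624 TPM in knockout and 0.859, 0.524 and 0.492 TPM in WT libraries, which overlapped. The large MAF gene Maf stayed below 0.3 TPM in all libraries, and Nrl, a photoreceptor factor, was at 0 in all but 1 WT library. Mafa, the large MAF of pancreatic beta cells, had 1.20, 1.32 and 1.77 TPM in knockout and 0.60, 0.644 and 0.610 TPM in WT libraries. It passed the filter through the knockout libraries alone, so a difference was built in. The rise was 0.58 on the log2 scale (SE 0.0891, adjusted p = 2.35e-04), 1.07 when the pseudocount was 0.1 and 0.19 when it was 5, and the authors' deposited table gives 1.12 (p = 0.00215).

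Transcripts of genes whose products degrade or process these factors were more often lower, as were those of the tested genes as a whole. Of 21 tested, 15 fell and 5 rose, with a median log2 fold change of -0.30, against -0.20 for all tested genes, and the split was 10 and 6 under both other scalings. These counts stand beside 54.8% of all tested genes lower and 28.3% higher as deposited, and the shares given above for the other scalings. Cand1, which exchanges cullin substrate receptors, averaged 13.1 ± 0.0599 TPM in knockout and 23.7 ± 0.617 TPM in WT cells (adjusted p = 5.49e-08). Gsk3b, a kinase that marks NRF2 for the ligase with beta-TrCP, averaged 1.86 ± 0.0440 TPM in knockout and 5.45 ± 0.273 TPM in WT cells (adjusted p = 1.04e-07). Fbxw11, a beta-TrCP of that ligase, fell by 0.58 on the log2 scale. Sqstm1, p62, which sequesters KEAP1 and is itself an NRF2 target, averaged 267 ± 3.57 TPM in knockout and 211 ± 2.51 TPM in WT cells and rose (adjusted p = 4.11e-07). With values known, 4 more were picked for their roles. Cul3, the scaffold that KEAP1 binds, fell by 0.48 and Ngly1, which removes sugars from NRF1, fell by 0.74. Fbxo22, which targets BACH1 for degradation, rose by 0.26. Ddi2, which cleaves NRF1, rose by 0.11 (adjusted p = 0.0406), a call that was lost without knockout replicate 2 or 3 or any one of the WT libraries (limma, adjusted p = 0.0623 to 0.131). Its difference was 0.33 under quantile normalization and 0.30 under median-of-ratios scaling.

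Genes with AREs, where these factors meet, went both ways. Of 27 tested, 11 rose and 15 fell, with a median of -0.18, beside 28.3% of all tested genes higher, 54.8% lower and a median of -0.20. Among the rises, Slc40a1 averaged 1.30 TPM in knockout and 0.127 TPM in WT cells and is named here because of the filter. It passed that filter through the knockout libraries alone, so its rise was built in. In the same list 13 rose and 12 fell under median-of-ratios scaling, where the list's median was 0.03. Of all tested genes 38.8% were higher and 41.2% lower there, with a median of -0.02. Under quantile normalization 11 of the list rose and 12 fell, with a median of -0.01. All tested genes then had 37.8% higher, 41.7% lower and a median of -0.03. Hmox1, the heme-degrading enzyme repressed by BACH1, averaged 304 ± 2.04 TPM in knockout and 81.6 ± 2.02 TPM in WT cells, a log2 fold change of 1.89. Fth1, ferritin heavy chain, rose by 1.06 and Cbr3, a carbonyl reductase, by 1.04, whereas Me1, malic enzyme, fell by 1.67. Among textbook NRF2 targets picked with values known, Gclm, a subunit of the enzyme that starts glutathione synthesis, rose by 0.81 and Txnrd1, thioredoxin reductase, by 0.72. Nqo1, a quinone reductase, fell by 0.73. More rises than falls are named here, although 11 of the list rose and 15 fell as deposited. Gsr and Ephx1 were among the other falls, with log2 fold changes of -1.14 and -0.96.

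The 31 proteasome genes, a set under NRF1, had 5 rises, 19 falls and 7 that did not pass, with a median of -0.19, beside 28.3% of all tested genes higher, 54.8% lower and a median of -0.20. The split was 10 higher and 17 lower under quantile normalization, beside 37.8% and 41.7% of all tested genes. Under median-of-ratios scaling it was 14 and 14, beside 38.8% and 41.2% of all tested genes. The list's median was 0.02 there, against -0.02 for all tested genes. The split and the median depended on the scaling, as did those of all tested genes. Psmc6, an ATPase of the regulatory particle, averaged 44.0 ± 1.62 TPM in knockout and 109 ± 3.87 TPM in WT cells (adjusted p = 3.52e-09). Psmc5, another such ATPase, fell by 0.61. Markers of fibroblasts, the usual feeder cells, summed to 12.6 to 13.6 TPM in knockout and 6.24 to 6.76 TPM in WT cells, with Col3a1 below 0.01 TPM on average in both groups. The higher sum came from Thy1, at 11.95 TPM in knockout and 3.11 TPM in WT cells, while Pdgfrb was lower, at 0.583 TPM in knockout and 2.58 TPM in WT cells, and Lum was at 0 TPM in knockout and 0.123 TPM in WT cells. Their part in these lists was not tested.

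**Figure D4:**
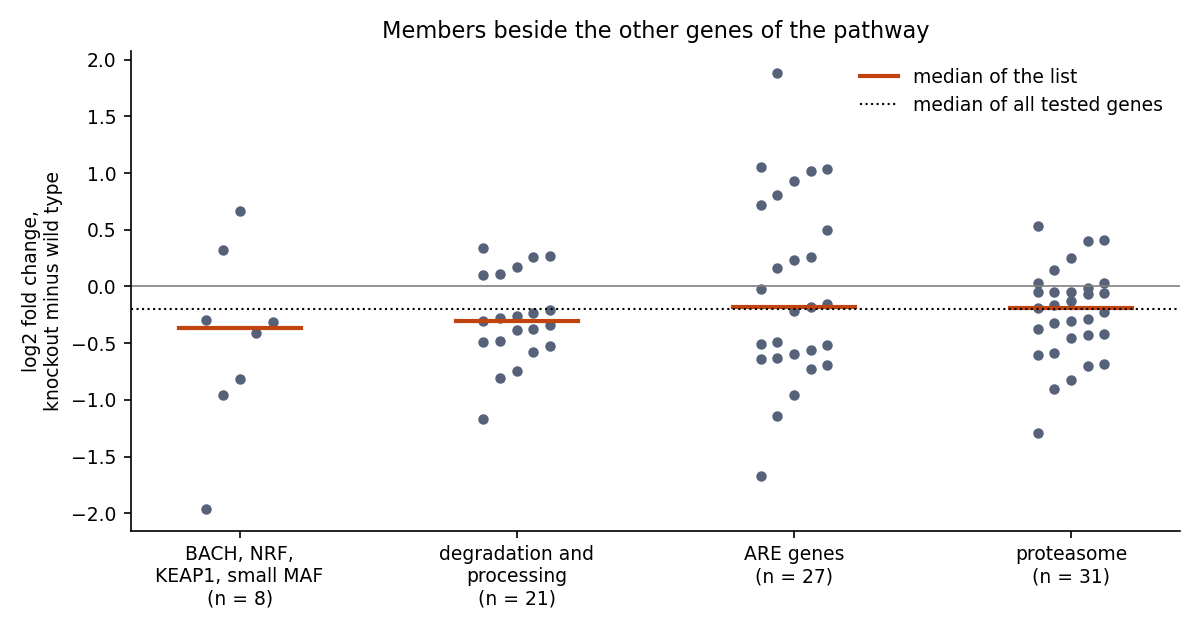
Log2 fold change, knockout minus WT, of each tested gene among the 8 factors and in 3 lists of related genes, with a bar at each list's median and a dotted line at the median of all tested genes (-0.20). The ARE genes spread widest, from Me1 at -1.67 to Hmox1 at 1.89, and the medians of the 3 lists lie at -0.30, -0.18 and -0.19.

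Genes with the closest profile over the 6 libraries, by Euclidean distance of log2(TPM + 1), were Kif13a, Ago2 and Yipf6 for Bach1, at distances of 0.126, 0.144 and 0.157. For Nfe2l2 they were Wtap, Sept7 and Mesd, at 0.152, 0.162 and 0.166, and for Keap1 they were Stat6, Auh and BC024978, at 0.222, 0.228 and 0.261.

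The nearest tested genes on either side, by gene order on GRCm38.p6, were read after the values of the 9 were known. Among all tested genes 28.3% were called higher and 54.8% lower in knockout cells, with a median of -0.20. Both neighbours of Nfe2, Hnrnpa1 and Copz1, fell by 0.56. Both neighbours of Mafg rose, Sirt7 by 0.34 and Pycr1 by 0.94. The neighbours of Keap1, Pde4a and Atg4d, had log2 fold changes of -0.06 (adjusted p = 0.458) and -0.08 (adjusted p = 0.0845) and did not pass. Around 3 other genes the neighbours went opposite ways: beside Nfe2l1, Cbx1 rose by 0.67 and Copz2 fell by 1.90, beside Nfe2l2, Hnrnpa3 rose by 0.42 and Agps fell by 0.24, and beside Maff, Pla2g6 rose by 0.56 and Tmem184b fell by 0.64. Beside Mafk, Tmem184a rose by 0.37, with 1.27 ± 0.276 TPM in knockout and 0.752 ± 0.190 TPM in WT cells. It passed the filter through the knockout libraries alone, so a difference was built in. The other neighbour of Mafk, Ints1, at 0.09 (adjusted p = 0.113), did not pass. Beside Bach2, Map3k7 fell by 0.23 and Casp8ap2 fell by 0.77. Beside Bach1, Cct8 fell by 0.52 and Tiam1 fell by 0.16, less than the median gene. The falls of Agps and Map3k7 were close to that of the median gene.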

How the data were processed

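PolyA RNA of 3 Bach1-KO and 3 WT libraries was used, with groups taken from the sample titles. Per the submitters' processing notes, mm9 is the build and Trim Galore, HISAT2, HOMER and limma were used, with no role, counting or strand setting stated. The authors deposited TPM, 1 RefSeq transcript per gene, and their own log2 fold changes with p-values, whose test and adjustment are not stated. TPM keep no depth.

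From the TPM, log2(TPM + 1) was compared by limma 3.58.1 in R 4.3.3 (lmFit, eBayes with trend) over genes reaching 1 TPM in 3 or more libraries, with Benjamini-Hochberg adjustment and calls at 0.05. The model was tested on simulated data. Exact permutation tests compared 6 ratios within libraries. Motifs were matched with Python 3.11.15.

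The members and lists were chosen with earlier results of these data known. Genes were named by rule: the members, their CNC and large MAF relatives, Hmox1, the 4 smallest p in the degradation and ARE lists, the 2 smallest in the proteasome list, and the 3 nearest profiles of Bach1, Nfe2l2 and Keap1. Others are marked where named, and an item that the rule names is not reported here. Alternatives were another pseudocount, filter, scaling or variance model, the replicate block, and leaving out each library. Protein sequences and peaks at these genes were not analysed here.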

Additional observations from a re-analysis of the deposited data

How the results depend on the processing

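The directions of the 8 tested genes were the same under each alternative in which they could be tested, and of their calls only that of Bach1 ended, under median-of-ratios scaling. With a mean of at least 5 TPM required, Bach1, Nfe2 and Mafk left the test, 1 of the factors was called higher and 4 lower, and over all genes 2112 were called higher and 4430 lower, from fewer genes tested. With the replicate number as a block, 3457 genes were called higher and 6692 lower, against 3446 and 6681 without it, and no call of the 8 changed. The numbers showed no sign of pairing: the deviations of libraries with the same number correlated at -0.00302, 0.0696 and -0.000791. Those with different numbers correlated at -0.0643 to 0.0672. Such correlations cannot show how the libraries were prepared. Leaving out each library gave 3322 to 3371 genes called higher and 6484 to 6532 called lower, and the 2 higher and 6 lower calls among the factors each time. The log2 ratio of the BACH genes over Nfe2l1, Nfe2l2 and Nfe2 ran from -0.085 to 0.045 when a library was left out and was 0.20 with 1 TPM added, so its sign was not fixed. Scaling without ribosomal protein genes, chosen after seeing that they took 34.1 to 34.4% of the listed TPM in knockout and 29.6 to 30.0% in WT libraries, gave 3991 genes called higher and 5963 lower, and all 8 factors passed. The planned peak alternatives were not run, since no peak could be placed at these genes. TPM give no depth, so counting error at the low levels of Bach1, Bach2 and Nfe2 is unknown.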
